A study of Drosophila melanogaster with 12 samples.

Results

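The comparison described here is that between young and middle-aged male fruit flies kept on a control diet, and its members are the 3 arrays of flies fed for 4 weeks and the 3 of flies fed for 2 days, 6 of the 12 arrays in the study. They were chosen by the diet and feeding time in the sample labels, and every gene that could be named on the array was followed, which left 10418 genes. All flies were adult males of the Drosophila melanogaster wild-type strain Canton-S, kept in vials of a single sex and 3 to 5 days old when feeding began. The control-diet flies were 5 to 7 days old after 2 days of feeding and 31 to 33 days old after 4 weeks. Below they are called young and old, words that stand only for these ages. The remaining 6 arrays held flies of the same ages on a high-sugar diet, in 2 groups of 3, and serve here as a second look at the same interval. Each array, which the labels call a biological replicate, carried labelled cRNA from homogenized whole animals, and the labels do not say how many flies went into 1 homogenate. Age and time on the diet went together in this design, and any processing day that went with them cannot be told apart from age, since the table used here holds no scan date.

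Adult flies do not grow, and most of their cells do not divide. Known features of the ageing fly include a loss of flight and climbing ability, a decline of mitochondrial energy metabolism in muscle, a falling male fertility that involves the accessory glands as well as the testis, and a rising activity of innate immunity, much of it through the Imd pathway in gut and fat body. A whole-animal measurement adds all tissues together, so the level of a gene depends both on how much each cell makes and on how many such cells the animal has. In these bulk samples fewer cells of a type and less RNA per cell cannot be told apart.

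The intensities as deposited, on a linear scale, ran from 1 to 16579.5, with array medians between 86.97 and 93.42. Pearson's r across genes, which are not independent replicates, lay between 0.984 and 0.990 for pairs of control-diet arrays of 1 age and between 0.955 and 0.980 for pairs of different ages. In a principal component analysis of the 6 arrays the leading component held 61.7% of the variance. The sex of the flies could be read from the arrays. The accessory gland gene SP read between 5701 and 10655 on the 6 arrays, and the yolk protein gene Yp1, a product of the female fat body, between 10.8 and 125.

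After 4 weeks 1488 of the 10418 genes were higher (14.3%) and 1961 were lower (18.8%) than after 2 days, 3449 in all (33.1%), by limma at a Benjamini-Hochberg adjusted p under 0.05. The median log2 fold change over all genes was -0.01, and its quartiles were -0.30 and 0.22. Most of the called changes were modest, with a median size of 0.52 on the log2 scale. Of the called genes 486 were higher by at least 1.5-fold (4.67% of all) and 883 lower (8.48%), and at 2-fold or more the counts were 110 (1.06%) and 220 (2.11%). The falls outnumbered the rises at each size, but for time on control diet after quantile normalization 1894 genes passed as higher and 1830 as lower. The 3 arrays of the older flies and the 3 of the younger did not overlap for 4735 genes (45.5%), and 4672 (44.8%) had an unadjusted p under 0.05. The standard error of a log2 fold change had a median of 0.131, and precision is limited by there being 3 arrays a group. For time on control diet the total became 2139 without 2-day array 3 and 2153 without 4-week array 1, and the higher genes alone were then 809 and 831, or 940 without 2-day array 1.

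**Figure D1:**
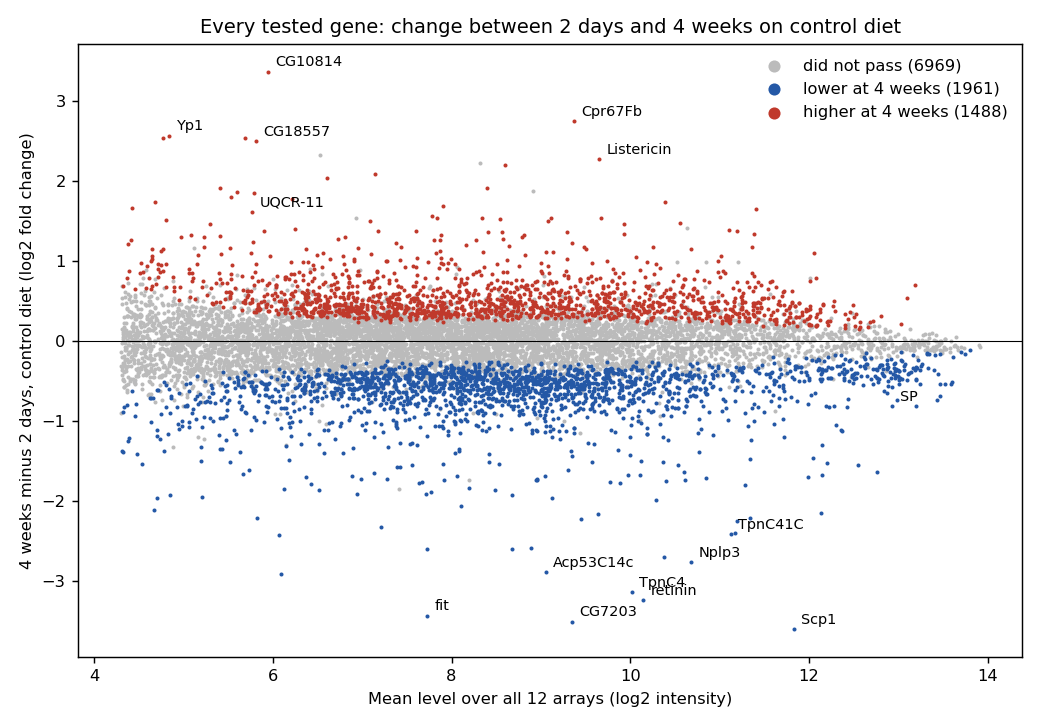
Each point is 1 of the 10418 genes, with its mean level over all 12 arrays (log2 intensity) on the x axis and its log2 fold change, 4 weeks minus 2 days on control diet, on the y axis. Red points are the 1488 genes called higher, blue points the 1961 called lower and grey points those that did not pass, and the labelled genes reach from CG10814 at 3.37 to Scp1 at -3.60.

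The largest fall was that of a muscle gene. Scp1 (gene 3355102), which encodes a calcium-binding protein of the sarcoplasm, stood at intensities of 13196.5, 10928 and 13902.5 on the 2-day arrays and at 772, 1207 and 1219 on the 4-week arrays. The groups were far apart, and the log2 fold change was -3.60 with a standard error of 0.20 (limma adjusted p = 4.05e-07). The corneal lens gene retinin (gene 53564) went from 3601, 3395 and 3159 to 286, 353 and 457, a log2 fold change of -3.24. For fit (gene 42578), a secreted peptide of the fat body around the brain that is known in flies as a satiety signal, the 2-day arrays read 786, 535 and 1792.5 and the 4-week arrays 70.2, 113 and 75.3, with a log2 fold change of -3.43. Young flies varied more in fit than in Scp1 or retinin, and genes were ranked here only if their groups did not overlap.

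The same ranking held further genes, among them genes of muscle and male glands. TpnC4, a calcium sensor of the thin filament in flight muscle, fell by 3.14 on the log2 scale. The seminal protein genes Acp53C14c and Acp76A had log2 fold changes of -2.89 and -2.69. The value of Nplp3, which encodes precursors of small neuropeptide-like molecules, was -2.76, and that of ninaD, a scavenger receptor that takes up carotenoids for making visual pigment, was -2.60. The remaining large falls were those of CG7203 (-3.50), CG7214 (-2.91), CG12374 (-2.59) and CG32457 (-2.59). These 12 genes were taken from those whose groups of arrays did not overlap, and each of the 12 passed under every alternative setting in which it was tested.

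The largest rises were smaller in number and often of genes that start from a low level. CG10814 (gene 36481) read 21.4, 26.6 and 19.7 in young and 349.9, 206 and 172 in old flies, a log2 fold change of 3.37 (standard error 0.26, limma adjusted p = 7.05e-06). A cuticle protein gene, Cpr67Fb (gene 39225), rose from 301, 356 and 192 to 1556, 1707 and 2376, a log2 fold change of 2.75. Listericin (gene 36183), which encodes an antibacterial protein, went from 823, 467 and 248 to 3935, 1236.5 and 2218, a log2 fold change of 2.27. The spread between arrays was wide for Listericin in both groups, and non-overlap of the groups was a condition of this ranking.

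Other genes in this ranking were Damm, a caspase of the cell death machinery, with a log2 fold change of 1.92, and the chitin deacetylase-like gene Cda9 with 2.09. The neprilysin-like peptidase gene Nepl17 had 1.80. The rest were CG18557 (2.50), CG4269 (2.20), CG31832 (2.04), CG9733 (1.92), CG34227 (1.74) and CG43064 (1.69). A pair of genes lay at the lower limit of 11.78, to which low intensities were raised, on all 3 young arrays, so that only a bound can be given. CG15239 was at least 5.81-fold higher in old flies, where it read 98.5, 37.6 and 86.6. The organic anion transporter gene Oatp26F was at least 3.18-fold higher and read 35.3, 34.7 and 42.9. Tet, which encodes a dioxygenase that acts on methylated bases and was named after its value was seen, rose from 50.6, 56.9 and 51.8 to 115, 126 and 113 (log2 fold change 1.15, limma adjusted p = 1.49e-05).

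**Figure D2:**
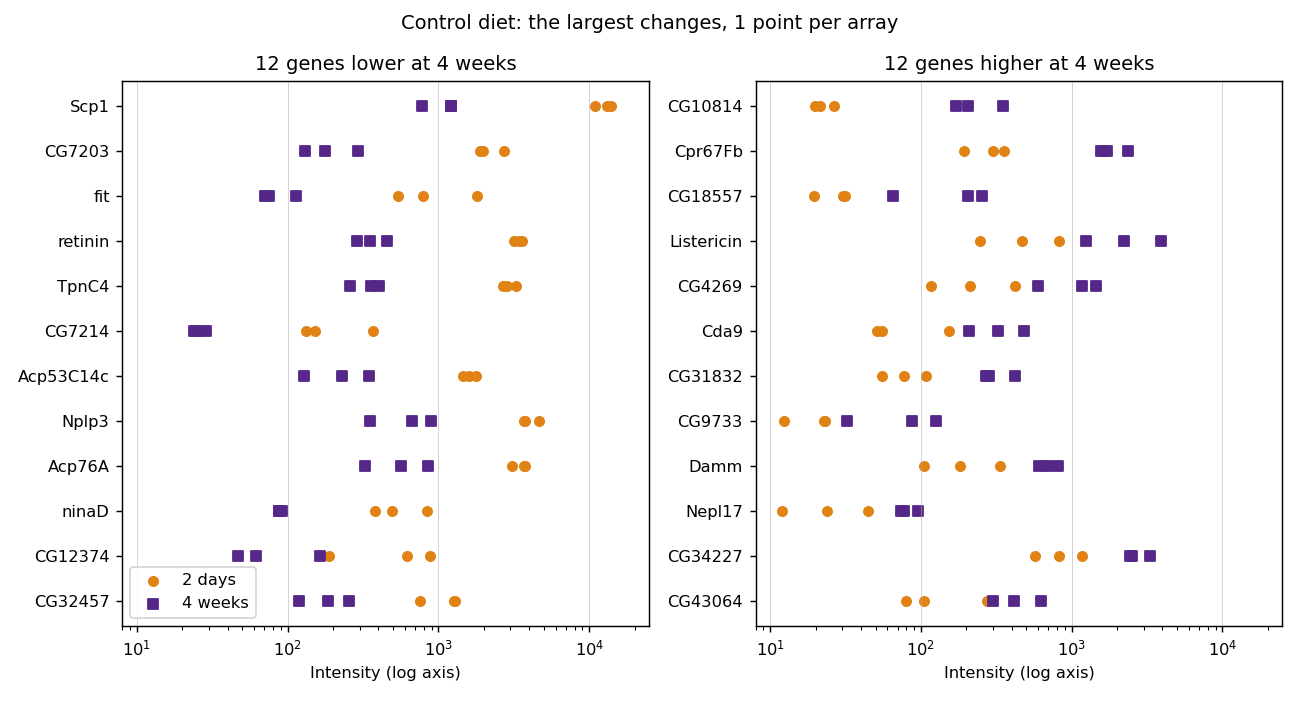
Each row is a gene and each point 1 array, with intensity on a log x axis, orange circles for 2 days and purple squares for 4 weeks on control diet. The left panel holds the 12 largest falls and the right panel the 12 largest rises that were above the lower limit on all 6 arrays and did not overlap. By that choice the old and young arrays lie on separate sides in each row.

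Muscle genes fell. Of 22 measured genes of the contractile apparatus (28 listed) 20 fell (90.9% against 18.8% of all genes), 0 rose and 2 did not pass. The median log2 fold change was -0.77 against -0.01 over all genes. The troponin C gene TpnC41C went from 4998, 4546 and 5598 to 770.4, 1096 and 999.8, a log2 fold change of -2.41 (standard error 0.14, limma adjusted p = 6.34e-07). An actin of the adult thorax and legs, Act79B, went from 10562, 8789 and 10976 to 2799, 4136 and 3495, a log2 fold change of -1.55. No old array reached the lowest young array for either gene.

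The sizes of the falls within the sarcomere spanned a wide range. The thick filament gene fln (flightin) had a log2 fold change of -1.67 and sls, a titin-like spring protein, -1.38. The flight muscle actin Act88F had -0.83 and the crosslinker Actn -0.82. The myosin light chain genes Mlc2 and Mlc1 fell by 0.69 and 0.56, and the Z-disc gene Zasp66 fell by 0.41. Strn-Mlck (-0.34) and the troponin C gene TpnC73F (-0.18) did not pass. The count of fallen genes stayed between 18 and 20 whichever array was left out.

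A further 5 genes that fell, with known roles in muscle calcium handling, energy supply or actin assembly, were named after their values were seen. SERCA, the pump that returns calcium to the sarcoplasmic reticulum, had the smallest adjusted p of all genes, and went from 12427, 11066 and 12767 to 3572, 4320.4 and 3841 (log2 fold change -1.63, standard error 0.07, limma adjusted p = 9.21e-08). The mitochondrial phosphate carrier Mpcp1 went from 4764, 4655 and 5405 to 758, 1249 and 1184, a log2 fold change of -2.25. The actin-assembly gene Fhos fell by 1.78, glycogen phosphorylase (Glyp) by 1.19 and arginine kinase (Argk1), which buffers ATP in insect muscle, by 0.74 on the log2 scale.

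Of the subunits of the respiratory chain and ATP synthase 79.7% fell, against 18.8% of all genes. Of 74 measured oxidative phosphorylation genes (90 listed) 59 fell, 1 rose and 14 did not pass, with a median log2 fold change of -0.36 and a range of -1.89 to 1.62. After quantile normalization 51 fell, with a median of -0.28, and between 49 and 60 fell when 1 array was left out. The ATP synthase subunit gene ATPsynB read 9051, 9209.5 and 9685 in young and 6706, 7031 and 7131 in old flies (log2 fold change -0.42, standard error 0.05, limma adjusted p = 7.91e-05). UQCR-14 of complex III had -0.48, the complex I gene ND-75 -0.74 and the complex II gene SdhD -0.63. The single riser was UQCR-11, whose probe set read only 31.6, 32 and 26.4 in young flies and 86.4, 99.4 and 89.7 in old ones (log2 fold change 1.62).

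Flies carry second copies of many of these subunits, several of which are known to be expressed mainly in testis and which bear an L at the end of their symbol. Of 18 measured copies 10 fell and 0 rose, where 18.8% of all genes fell and 14.3% rose. The median log2 fold change of the copies was -0.45. Of the 56 other subunits 49 fell and 1 rose, with a median of -0.34. The fall was thus measured in both classes, and the difference between them was not tested. COX7AL2, a copy of a cytochrome c oxidase subunit, went from 6761, 6579 and 7705 to 2189, 3812 and 2799, a log2 fold change of -1.29.

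Pathways that feed the respiratory chain gave falls in carbohydrate breakdown, while the rises in fatty acid oxidation were close to the share of all genes. Of 11 measured genes of the tricarboxylic acid cycle and pyruvate dehydrogenase, 7 fell (63.6% against 18.8% of all genes) and 1 rose (9.09% against 14.3%). The median log2 fold change was -0.32. After quantile normalization 5 fell and 2 rose, with a median of -0.13. The aconitase gene mAcon1 fell by 0.48, the isocitrate dehydrogenase subunit Idh3g by 0.73 and muc, the E2 subunit of pyruvate dehydrogenase, by 0.50. Of 12 glycolysis genes 7 fell (58.3%) and 0 rose, with a median of -0.25, and after quantile normalization 5 fell, with a median of -0.090. Gapdh1 went from 9590.1, 9683 and 9776 to 6318, 6749.9 and 6503, a log2 fold change of -0.57 (standard error 0.05, limma adjusted p = 2.44e-05), and Pfk, the regulated enzyme of the pathway, had -0.68. Without 4-week array 2 the glycolysis list held 1 rise. Of 12 measured genes of fatty acid oxidation 2 rose, Arc42 (0.41) and yip2 (0.22), which at 16.7% is close to the 14.3% of all genes. In that list 0 fell, and the median was 0.07. Arc42 lost its call without 2-day array 1 or 2 (adjusted p up to 0.0579) and yip2 without any array but 4-week array 2 (up to 0.119). ScsbetaG, the riser of the tricarboxylic acid cycle (0.33), lost its call without 2-day array 1 or 3 or 4-week array 1 or 3 (up to 0.095).

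**Figure D3:**
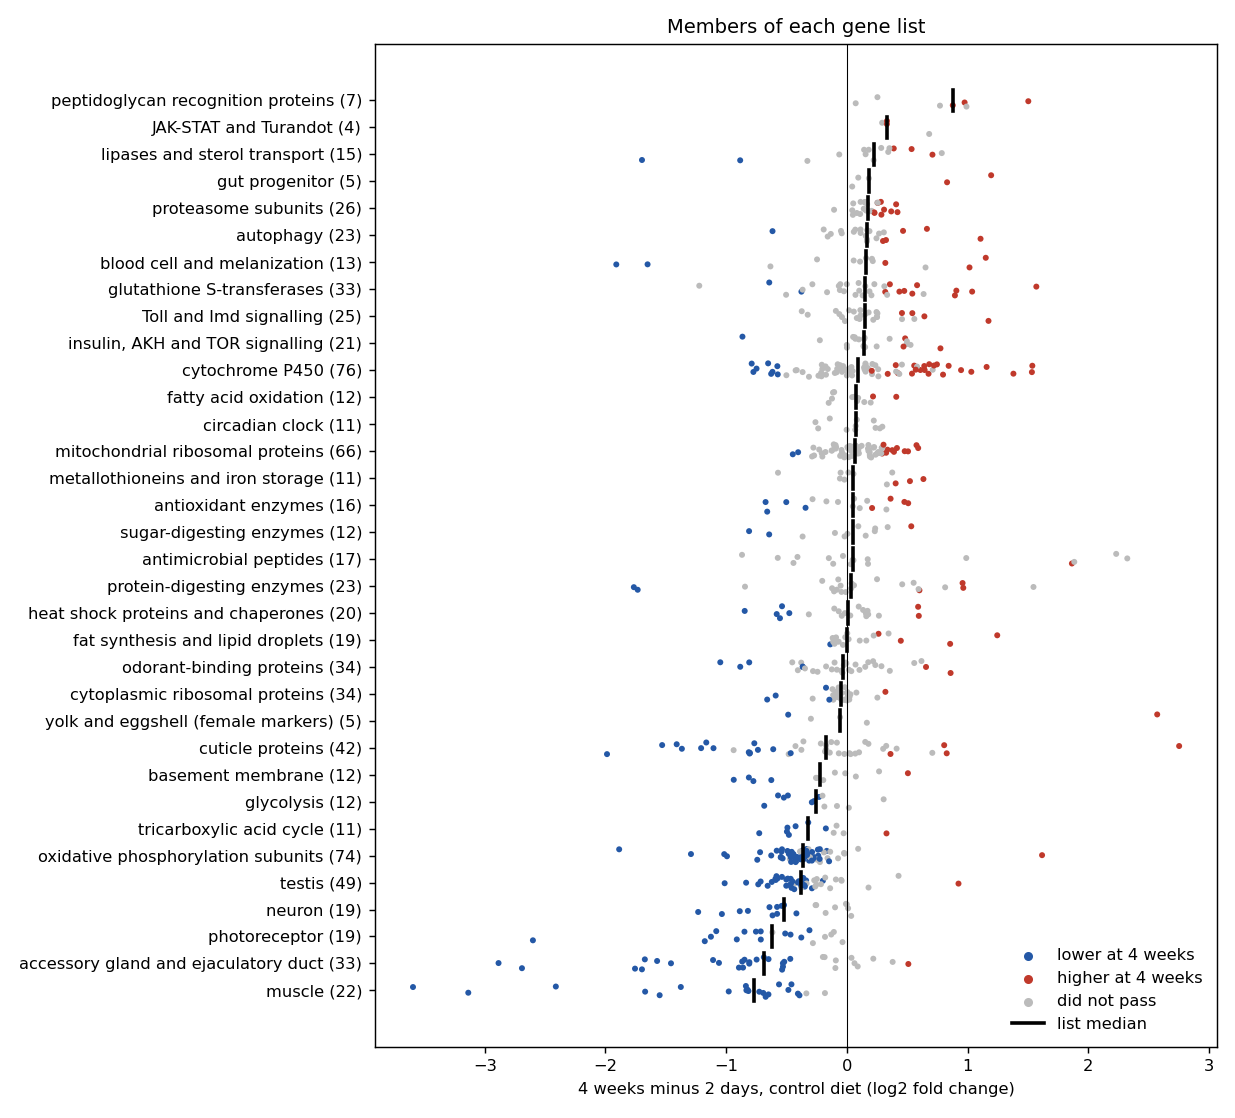
Each point is a measured gene of the list named at the left, placed by its log2 fold change, 4 weeks minus 2 days on control diet, with red for higher, blue for lower and grey for genes that did not pass. The number after each name is that of measured genes and the black bar is the list median, which runs from 0.88 for the peptidoglycan recognition proteins to -0.77 for muscle.

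Genes of the eye were lower in old flies. Of 19 measured photoreceptor genes (30 listed) 13 fell (68.4% against 18.8% of all genes), 0 rose and 6 did not pass. The median log2 fold change was -0.62. Gbeta76C, the beta subunit of the G protein of phototransduction, went from 2869, 2590.5 and 2691 to 1106, 1151 and 1358 (log2 fold change -1.18, standard error 0.11, limma adjusted p = 2.23e-05). For chp, which encodes the surface protein chaoptin of the light-sensing membranes, the values were 1606, 1516 and 1599 in young and 757, 733 and 739 in old flies (-1.08). The scaffold gene inaD went from 364, 371 and 359.8 to 218, 216 and 216 (-0.75).

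Gbeta76C, chp and inaD were named for the smallest adjusted p of the list, so their small spread within each age goes with that choice. For ninaD of the same list the young arrays read 491, 380 and 841, and its log2 fold change had a standard error of 0.56. The light-activated channel gene trpl (-0.85), the carotenoid-cleaving enzyme gene ninaB (-0.91) and eys, which builds the space between light-sensing membranes (-1.13), also fell. The other light-activated channel, trp (-0.04), and the arrestin Arr2 (-0.11) did not pass. Between 10 and 14 of the genes fell when 1 array was left out.

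A part of the neuronal genes was lower too, while several general neuronal markers did not pass. Of 19 measured genes (21 listed) 11 fell (57.9% against 18.8% of all genes), 0 rose and 8 did not pass. The median log2 fold change was -0.52. The neuronal sodium pump subunit nrv3 went from 4089, 3573 and 3751 to 1604.5, 1688 and 1561 (log2 fold change -1.23, standard error 0.11, limma adjusted p = 1.75e-05). Gad1, which makes the transmitter GABA, fell by 1.04 and the GABA receptor Rdl by 0.89 on the log2 scale. The acetylcholine genes ChAT and VAChT had -0.52 and -0.62, and the synaptic vesicle genes Syn and Rab3 -0.64 and -0.54. By contrast elav, the general neuronal RNA-binding protein, read 1077, 934 and 909 in young and 1124, 1126 and 738 in old flies (0.01), and the groups overlapped. The vesicle gene nSyb (0.04), the active zone gene brp (-0.01) and the calcium channel gene cac (-0.25) also did not pass. The 11 calls were as many whichever array was left out.

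Genes of the male reproductive glands were lower in old flies. Of 33 measured genes of the accessory gland and ejaculatory duct (62 listed) 23 fell (69.7% against 18.8% of all genes), 1 rose and 9 did not pass. The median log2 fold change was -0.69. SP, the sex peptide that changes the behaviour of mated females, went from 10588, 10360.0 and 10655 to 5701, 6632.5 and 5748 (log2 fold change -0.81, standard error 0.07, limma adjusted p = 2.23e-05). The gene aqrs, whose product acts in the network that binds sex peptide to sperm, went from 1663, 1369 and 1875 to 453, 475 and 515 (-1.76). Acp62F, a seminal protease inhibitor, had -1.46 and Acp26Aa, the ovulation-promoting protein ovulin, -1.70.

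The neighbour of ovulin, Acp26Ab, rose from 4525, 4052 and 4131 to 6569, 5186 and 6415 (0.51). Dup99B (-0.20), a duct peptide related to sex peptide, and prd (0.04), a regulator of accessory gland development, did not pass. Seminal protein genes thus ran from a 7.39-fold lower level for Acp53C14c to a 1.42-fold higher level for Acp26Ab. The number that fell was 23 or 24 whichever array was left out, and 2 rose without 4-week array 3.

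Testis genes fell in 67.3% of cases, against 18.8% of all genes, and by modest amounts. Of 49 measured genes (59 listed) 33 fell, 1 rose and 15 did not pass, with a median log2 fold change of -0.38. The testis gene ocn went from 9531, 9009.5 and 9598.5 to 5947, 6156 and 6177 (log2 fold change -0.62, standard error 0.06, limma adjusted p = 4.13e-05). Mst84Db, which encodes a structural protein of the sperm tail, went from 9715, 8909 and 9729 to 6485, 6405 and 7136 (-0.50). The regulators of the meiotic transcription programme aly (-0.05), can (-0.21), comr (0.18) and sa (-0.27) did not pass, while mia, of the same group, rose by 0.93. Leaving out 1 array gave between 22 and 36 falls, and 2 rises without 4-week array 3.

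Among the recognition protein genes and their partner pirk 3 rose, and 16 of 17 antimicrobial peptide genes did not pass. The antimicrobial list was not limited to the Imd pathway, and also holds Bom and drosomycin (Drs and Drsl) genes. The Imd pathway senses bacterial peptidoglycan through recognition proteins and passes the signal through the adaptor Imd and a kinase complex. It turns on antimicrobial peptide genes through the factor Relish. Of 7 measured recognition proteins and their partner pirk (14 listed) 3 rose (42.9% against 14.3% of all genes) and 0 fell (against 18.8%). The median log2 fold change was 0.88. The gene pirk, a repressor of the pathway, went from 611, 576 and 384 to 1967, 891 and 1759.7 (log2 fold change 1.504, standard error 0.30, limma adjusted p = 0.00288). PGRP-LF, an inhibitory receptor, went from 223, 249 and 144 to 524, 270.3 and 429.8 (0.98), and PGRP-LB, an enzyme that degrades peptidoglycan, from 879, 677 and 426 to 1467, 889 and 1208 (0.88). In each of the 3 the old arrays lay above the young ones, and the groups did not overlap for 45.5% of all genes. They are negative regulators by their known roles, but other negative regulators did not pass, namely casp (0.25, adjusted p = 0.0618) and dnr1 (-0.37, adjusted p = 0.0653). PGRP-SC2 (0.77, adjusted p = 0.107) and PGRP-SB1 (0.99, 0.135) did not pass. PGRP-LB lost its call without 2-day array 3 or 4-week array 1 (adjusted p up to 0.0726), and 5 of the 7 passed without 4-week array 2.

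Of 25 measured components of Toll and Imd signalling 4 rose, which at 16% is close to the 14.3% of all genes, and 0 fell, with a median log2 fold change of 0.15, and 1 fell without 2-day array 2 or 4-week array 2. The kinase complex subunit key (kenny) went from 478, 617 and 470.2 to 872, 675 and 897 (log2 fold change 0.64, standard error 0.14, limma adjusted p = 0.00492), and the adaptor imd from 209.7, 232 and 218 to 391, 318 and 263 (0.54). Charon, a nuclear partner of Relish, rose by 1.17 and the Toll adaptor Myd88 by 0.46. Relish itself (Rel) read 2156, 1719.8 and 1376 in young and 2840.0, 1753.5 and 3277 in old flies and did not pass (0.56, adjusted p = 0.0536). JAK-STAT signalling was measured through 4 genes, of which Stat92E (0.33) and the phosphatase gene Ptp61F (0.33) rose. Ptp61F lost its call without 2-day array 1 or 3 or 4-week array 1 or 3 (adjusted p up to 0.16), with the replicate block (0.0595) and with the 6 control-diet arrays alone (0.0822). The mean of all its probe sets gave 0.094 (adjusted p = 0.482).

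Antimicrobial peptide genes varied widely between arrays of 1 age. Of 17 measured genes (35 listed) 1 rose (5.88% against 14.3% of all genes), 0 fell (against 18.8%) and 16 did not pass. The median log2 fold change was 0.05. The cecropin gene CecB went from 55.6, 26.4 and 23.8 to 132, 45.1 and 284 (1.87, limma adjusted p = 0.0137), and the call was lost without 2-day array 3 (adjusted p = 0.0566). The diptericin gene DptB read 5379, 1543 and 48.1 in young and 5929, 569 and 5948 in old flies, and its log2 fold change of 1.88 did not pass (standard error 1.36, adjusted p = 0.302). The metchnikowin gene Mtk read 10454, 5676 and 173 and then 9404, 989.7 and 8635 (0.99, adjusted p = 0.558). The same arrays were low for several of these genes, namely 2-day array 3 and 4-week array 2.

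Averaged over the 17 genes, the log2 intensity was 11.28, 10.53 and 9.47 on the young arrays and 11.21, 10.10 and 11.24 on the old ones, and the groups overlapped. The attacin gene AttD (2.32, adjusted p = 0.142) and the defensin gene Def (2.23, adjusted p = 0.0596) had large fold changes that did not pass, and drosomycin (Drs) had 0.05. Without 2-day array 3 the list held 0 rises and 3 falls, and without 2-day array 1 or 4-week array 2 it held 3 rises. It held 1 fall without 4-week array 1 or 4-week array 2, and its median changed sign in 4 of 18 alternatives, with a range of -0.22 to 0.31. The recognition proteins and Listericin moved in the same direction between the same arrays, with 4-week array 2 the lowest of the old arrays for pirk, PGRP-LF, PGRP-LB and Listericin. The part of this array-to-array difference in their rise was not tested.

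**Figure D4:**
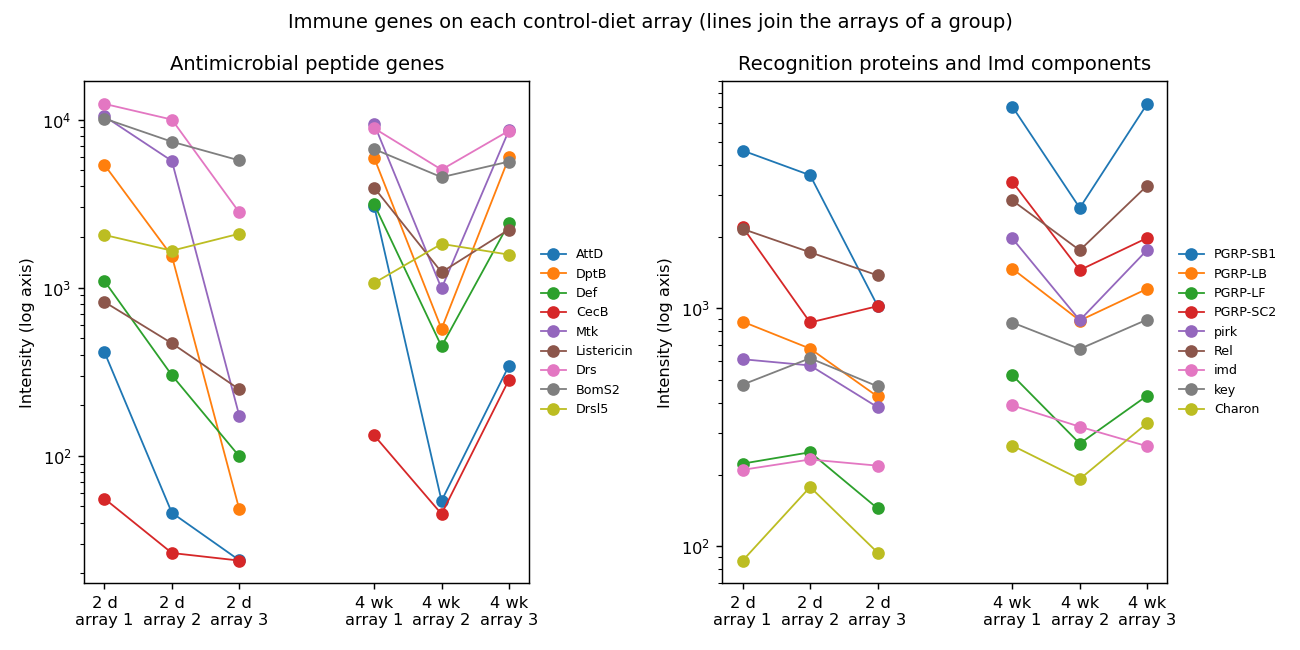
Intensity on a log y axis is shown for 9 antimicrobial peptide genes (left) and 9 recognition proteins and Imd components (right) on each of the 6 control-diet arrays, and lines only join the arrays of a group. DptB runs from 48.1 to 5379 among the young arrays alone, while pirk, PGRP-LF and PGRP-LB are higher on every old array than on any young one. The groups did not overlap for 45.5% of all genes.

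Of 13 measured blood cell genes 3 rose (23.1% against 14.3% of all genes) and 2 fell (15.4% against 18.8%). The median log2 fold change was 0.16. The falls were those of the prophenoloxidases PPO1, which went from 381, 304 and 544 to 63.1, 165 and 113 (log2 fold change -1.91, standard error 0.30, limma adjusted p = 0.000743), and PPO2, from 213, 205 and 298 to 55.2, 115 and 66.2 (-1.65). These enzymes of melanin formation are made by crystal cells, a small class of blood cells. The engulfment receptor gene NimC4 rose by 1.15 from a level at which 1 of 3 young arrays was at the lower limit. The melanization proteases Hayan (1.02) and Sp7 (0.32) rose too. Hayan lost its call without 2-day array 2 or 3 or 4-week array 1 or 3 (adjusted p up to 0.113) and Sp7 without any array but 4-week array 2 (up to 0.149). The list held 1 rise without 2-day array 2 or 3 or 4-week array 1 or 3, and 5 without 4-week array 2.

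Detoxification enzymes rose in 30.3% of the glutathione S-transferase genes and 28.9% of the cytochrome P450 genes, against 14.3% of all genes. Of 33 measured glutathione S-transferase genes (35 listed) 10 rose and 2 fell, with a median log2 fold change of 0.15. GstE11 went from 138, 153 and 142 to 333, 248 and 315 (log2 fold change 1.04, standard error 0.14, limma adjusted p = 0.000273) and GstE6 from 3362, 3354 and 3521 to 4758, 4603 and 4483 (0.44). GstD2 had the highest value of the family at 1.57. Of 76 measured cytochrome P450 genes (86 listed) 22 rose and 8 fell, with a median of 0.10. Cyp309a1 went from 557, 630.0 and 619 to 1489, 1411 and 1149.7 (log2 fold change 1.16, limma adjusted p = 0.000273), and Cyp6a22 (0.64) and Cyp6a13 (0.80) rose as well. Falls were measured for Cyp312a1 (-0.75), Cyp6t1 (-0.79) and Cyp4g15 (-0.58), so the family moved both ways. The P450 rises numbered 13 without 2-day array 1 and 11 without 2-day array 3, and the falls 5 without 2-day array 1 and 3 without 2-day array 3 or 4-week array 1. Between 8 and 11 transferase genes rose whichever array was left out.

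Antioxidant enzymes and chaperones showed no shared direction. Of 16 measured antioxidant genes 4 rose (25% against 14.3% of all genes) and 4 fell (25% against 18.8%), with a median log2 fold change of 0.05. The glutathione synthesis gene Gclc (0.48) and the mitochondrial peroxiredoxin Prx3 (0.36) rose, and the secreted superoxide dismutase Sod3 (-0.66) and the peroxiredoxin Prx6c (-0.67) fell. Mitochondrial superoxide dismutase (Sod2, -0.28, limma adjusted p = 0.0624) and catalase (Cat, -0.07, 0.347) did not pass. Keap1 (0.51) and Trxr2 (-0.50) each lost their calls without 4 of the 6 arrays (adjusted p up to 0.102 and 0.125). The list held 2 rises without 2-day array 2 or 3 or 4-week array 1 or 2, and 2 falls without 2-day array 1 or 3 or 4-week array 1.

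Of 20 measured heat shock and chaperone genes 2 rose (10% against 14.3% of all genes) and 5 fell (25% against 18.8%). The median was 0.01, which changed sign in 2 of 18 alternatives, and after quantile normalization 6 rose and 5 fell. The risers were Hsp110, a partner of Hsp70 chaperones that went from 1139, 1138 and 1116 to 1929, 1588 and 1632 (log2 fold change 0.60, standard error 0.09, limma adjusted p = 0.000729), and the co-chaperone gene stv (starvin, 0.59). The 5 that fell were Hsp60D (-0.85), Hsc70-2 (-0.58), Hsp60B (-0.55), Hsc70-1 (-0.54) and Hsp60C (-0.48). Hsp60B and Hsp60C are known for their roles in sperm formation rather than in the stress response. The stress-inducible genes Hsp26 (-0.02), Hsp27 (-0.32), Hsp68 (-0.07), l(2)efl (0.10) and the co-chaperone gene DnaJ-1 (0.27) did not pass. Only 3 genes fell without 2-day array 1 or 4-week array 1, and 4 rose without 2-day array 2.

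Of the proteasome genes 34.6% and of the autophagy genes 21.7% passed as higher, against 14.3% of all genes. Of 26 measured proteasome subunits (32 listed) 9 rose, 0 fell and 17 did not pass. The median log2 fold change was 0.18, and 25 of the 26 values were above 0. Prosbeta5, a catalytic subunit, went from 2195, 2387 and 2287 to 3354, 2747 and 3112 (log2 fold change 0.42, standard error 0.09, limma adjusted p = 0.00456), and the lid subunit Rpn6 rose by 0.29. The number of rises was 3 without 2-day array 1, 2-day array 3 or 4-week array 1, and 5 with the 6 control-diet arrays alone. Of 23 autophagy genes 5 rose and 1 fell, with a median of 0.17. Atg17, which scaffolds the initiating kinase complex, went from 101, 127 and 165 to 327, 280.1 and 231 (1.11), while the germline-expressed Atg8b fell by 0.62. Of 66 measured mitochondrial ribosomal protein genes 11 rose, which at 16.7% is close to the 14.3% of all genes, and 2 fell (median 0.07), with 5 rises with the 6 control-diet arrays alone, 4 without 2-day array 3, 5 without 2-day array 1 and 7 without 4-week array 1 or 3. There were 6 falls without 4-week array 3 and 1 without 2-day array 2 or 3. Of the 34 measured cytoplasmic ribosomal protein genes 1 rose and 4 fell (median -0.05), but after quantile normalization 13 rose and 2 fell (median 0.06). Without 4-week array 1 only 1 of them fell, and 0 rose without 2-day array 3.

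Among insulin and nutrient signalling genes the share called higher did not stand above the background. Of 21 measured genes (34 listed) 3 rose, which is 14.3% as among all genes, and 1 fell (4.76% against 18.8%). The median log2 fold change was 0.14, and 18 of the 21 values were above 0, against 48.7% of all genes. After quantile normalization 6 rose. The kinase gene Akt went from 527, 528 and 478 to 1033, 720.4 and 897 (log2 fold change 0.78, standard error 0.14, limma adjusted p = 0.00185), and REPTOR, a transcription factor held in check by TORC1, rose by 0.47. The adipokinetic hormone gene Akh rose by 0.48, a call lost without 2-day array 1 or 3 or 4-week array 2 or 3 (adjusted p up to 0.142). Among insulin-like peptides Ilp5 fell by 0.87 on the log2 scale, from 99.2, 104 and 118 to 45, 75 and 59.8, and Ilp2 did not pass (0.15). The insulin receptor InR (0.53, adjusted p = 0.0698), foxo (0.50, 0.0567), ImpL2 (0.14, 0.464) and Sirt1 (0.13, 0.47) did not pass. Indy, a citrate transporter known from lifespan studies, rose by 0.25, but its call was lost without any array but 4-week array 3 (adjusted p up to 0.157). The receptor gene mth, also known from such studies, read 118, 152 and 108 in young and 177, 141 and 163 in old flies and did not pass (0.36, adjusted p = 0.112).

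Digestive protease genes did not stand above the background, with 13% of them higher and 8.7% lower against 14.3% and 18.8% of all genes. Of 23 measured protease genes 3 rose and 2 fell (median 0.04), and 5 rose after quantile normalization. The trypsin gene zetaTry went from 395, 179.8 and 372 to 65.8, 138 and 74.3 (log2 fold change -1.77, limma adjusted p = 0.0052), and 0 protease genes rose without 2-day array 3 while 1 fell without 2-day array 1 or 4-week array 1. Of 12 sugar-digesting enzymes 1 rose (8.33%) and 2 fell (16.7%), and the maltase Mal-A5 went from 1509.8, 1506.5 and 1502 to 932, 1003 and 958 (-0.64, limma adjusted p = 0.00109). The riser Mal-A2 (0.53) lost its call without any array but 2-day array 2 (adjusted p up to 0.111), and the other fall, of Amyrel (-0.81), was lost without 2-day array 3 or 4-week array 1 (up to 0.0885). Of 15 lipase and sterol transport genes 3 rose (20%) and 2 fell (13.3%). The falls were those of Npc2h (-0.88) and Npc2d (-1.70), the latter not without 2-day array 1 or 3 or 4-week array 1 (adjusted p up to 0.1). Of 19 genes of fat synthesis and lipid droplets 4 rose (21.1%) and 1 fell (5.26%), and Mtp, which loads lipid onto lipoproteins, went from 766, 840.1 and 814 to 1669.7, 1491 and 1247.5 (0.86, limma adjusted p = 0.000241). The lipid list held 2 rises without 4-week array 1, and its fall, of the fatty acid synthase FASN1 (-0.14), lost its call without any array but 4-week array 2, without which there were 3 falls, and after quantile normalization (adjusted p = 0.721). In the gut progenitor list of 5 genes 2 rose (40%), 0 fell and 3 did not pass. The stem cell factor esg rose from 88.4, 111 and 89.4 to 170.4, 158 and 184 (0.83) and nub, whose product Pdm1 marks mature enterocytes, by 1.20.

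Among structural proteins outside cells 33.3% of the cuticle genes and 33.3% of the basement membrane genes fell, against 18.8% of all genes. Of 42 measured cuticle protein genes (120 listed) 14 fell, 4 rose and 24 did not pass, with a median log2 fold change of -0.18. Cpr49Ae went from 2562, 2097 and 3271 to 527, 1191 and 449 (log2 fold change -1.99, standard error 0.31, limma adjusted p = 0.000728), which is the largest fall of that list as Cpr67Fb is its largest rise. Of 12 basement membrane genes 4 fell, 1 rose and 7 did not pass, with a median of -0.22. The collagen IV chains Col4a1 and vkg went from 1467.5, 1401 and 1370.5 to 805, 742 and 672 (-0.94) and from 969, 952 and 963 to 588, 505 and 598 (-0.77). The collagen-binding gene SPARC fell by 0.63 and the peroxidasin gene Pxn by 0.81, while the laminin chains LanA (0.07), LanB1 (-0.20) and LanB2 (-0.01) did not pass. The laminin gene wb rose by 0.51, but the mean of all its probe sets gave -0.10, and 2 genes rose without 2-day array 2 or 4-week array 3.

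Of 11 circadian clock genes 0 passed by limma and 1 had an unadjusted p under 0.05, with values between -0.26 (Pdp1) and 0.29 (vri), and 1 rose without 2-day array 1. Of 34 odorant-binding protein genes 2 rose (5.88%) and 5 fell (14.7%), and after quantile normalization 4 rose and 4 fell. Obp22a fell by 1.05 on the log2 scale. The rises were those of Obp83ef (0.86) and Obp59a (0.66), and the list held 0 rises without 4-week array 1 and 1 without 2-day array 1 or 3 or 4-week array 2 or 3. Of 11 metal-binding and iron genes 3 rose (27.3% against 14.3% of all genes), among them the metal-responsive factor MTF-1 (0.40), with 0 rises without 2-day array 1 and 1 without 4-week array 1. Yolk and eggshell genes, included as markers of female tissue, were measured for 5 of 16, of which 1 rose and 1 fell, with a median log2 fold change of -0.06. Their mean log2 intensity lay between 5.38 and 5.45 on the young and between 5.55 and 6.10 on the old arrays, and its part in the other results was not tested. Yp1 went from 17.4, 11 and 10.8, with 2 of the 3 at the lower limit, to 59.5, 125 and 68.3 and rose (log2 fold change 2.57, limma adjusted p = 4.56e-05), while Yp3 (-0.30) did not pass. The fall of the eggshell gene Vm26Aa (-0.49) was lost without any 1 of the 6 arrays (adjusted p up to 0.128). The larval serum protein Lsp2 did not pass (-0.37, adjusted p = 0.245), but fell without 4-week array 2.

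The flies on high-sugar diet gave the same interval on separate arrays. Both contrasts came from 1 fit and share its estimate of the spread for each gene, so their calls are not independent. There 2068 genes were higher (19.9%) and 2370 lower (22.7%) after 4 weeks, 4438 in all (42.6%). Of the 1488 genes that rose on control diet 1056 also rose on high-sugar diet, which is 71.0% of the former and 51.1% of the latter, and of the 1961 that fell 1554 also fell, 79.2% and 65.6%. The sign was the same for 1445 and 1916 of them. The median log2 fold changes of the control-diet risers were 0.48 on control and 0.44 on high-sugar diet, and those of the genes that fell -0.56 and -0.62. Scp1 for example stood at -3.60 and -3.50 and retinin at -3.24 and -3.02.

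**Figure D5:**
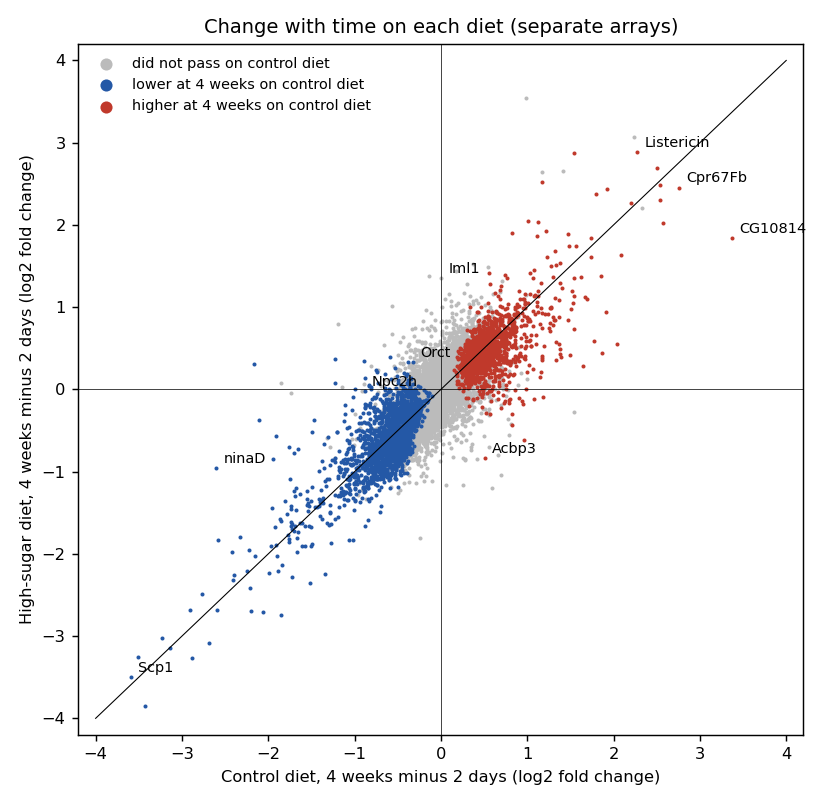
Each point is 1 gene, with its log2 fold change, 4 weeks minus 2 days, on control diet (x axis) and on high-sugar diet (y axis), coloured by its call on control diet, and the diagonal marks equal change. The points lie along the diagonal, with Acbp3 (0.51 and -0.83) and Iml1 (0.00 and 1.35) away from it.

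Whether the change over time differed between the diets was tested for each gene. By limma 0 genes passed (0%), and 757 (7.27%) had an unadjusted p under 0.05. The median standard error of the difference was 0.186 on the log2 scale. Leaving out 1 control-diet array gave between 0 and 3 calls, with 1 without 2-day array 2, 3 without 4-week array 2 and 1 without 4-week array 3, and no filter gave 1. Iml1, which acts in the complex that inhibits TORC1, had a value of 0.00 on control and 1.35 on high-sugar diet, a difference of -1.35 with a standard error of 0.20 (adjusted p = 0.0962, and 0.0113 without 4-week array 3). The acyl-CoA-binding gene Acbp3 rose by 0.51 on control diet and fell by 0.83 on high-sugar diet (difference 1.34, standard error 0.20, adjusted p = 0.0962). Acbp3 and the organic cation transporter gene Orct (-0.32 and 0.33, adjusted p of the difference 0.444) were the only 2 genes called in opposite directions.

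Eye and brain genes had smaller median falls on high-sugar diet, and 0 of the 38 measured genes passed the test of the difference, with 8 at an unadjusted p under 0.05. The photoreceptor median was -0.62 on control and -0.31 on high-sugar diet, with 13 and 9 falls, and the neuron median -0.52 and -0.25, with 11 and 7. For ninaD, a carotenoid uptake receptor in the photoreceptor list, the values were -2.60 and -0.96 (difference -1.65, standard error 0.80). In which tissue it changed was not tested. The muscle medians were -0.77 and -0.60, with 20 and 19 falls, and oxidative phosphorylation stood at -0.36 and -0.41, with 59 and 63. Of the 17 antimicrobial peptide genes 0 passed the test of the difference, and 4 had an unadjusted p under 0.05. Their median was 0.46 on high-sugar diet, where 6 rose and 2 fell, and 0.05 on control diet, with 1 rise and 0 falls. Among all genes 19.9% rose and 22.7% fell on high-sugar diet, and 14.3% and 18.8% on control diet.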

How the data were processed

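RNA of whole adult males had been hybridized to Affymetrix arrays, and the deposited table holds 18869 probe sets. Its values are intensities on a linear scale that, per the labels and the series text, the authors extracted with the perfect match and mismatch model of dChip and normalized there. They are not counts, so no sequencing depth applies.

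Intensities below the 20th percentile of all values (11.78) were set to it before log2 was taken. The 100 control probe sets were removed, as were probe sets whose mean lay in the lowest 30% (log2 under 4.30). The array annotation gave 13647 probe sets 1 gene symbol, 402 several and 4720 none, and 13544 matched the RefSeq gene table (Release 6 of the genome), from which current symbols were taken. The probe set with the highest mean stood for its gene, which left 10418 genes, 683 of them with further probe sets. Coordinates are not given, since the sources used here do not name the genome build, and promoter sequences were not analysed here.

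The 4 groups entered 1 linear model in limma (version 3.58.1, R version 4.3.3; lmFit, then eBayes with a trend) on the 12 arrays, which left 8 residual degrees of freedom. Contrasts were 4 weeks minus 2 days on each diet and the difference of these 2. Each p-value was adjusted over all genes by the Benjamini-Hochberg method, with a threshold of 0.05, and the procedure was tested on simulated data. The labels speak of biological replicates but do not name separate cultures, so p-values measure the spread between these arrays.

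The comparison, the 35 gene lists, the rule for named genes and the alternatives were chosen with earlier results of these data known. Named genes were up to 12 rises and 12 falls with the largest fold change among called genes above the lower limit on all 6 arrays and with no overlap of the groups, up to 5 each way at the limit in a whole group, up to 3 each way with the smallest adjusted p in a list, up to 5 each way for the difference between diets, and 20 genes given whether or not they passed. Of those 20, Thor, Sod1, Hsp23, AttA and ninaE were not among the genes tested. Other genes were named after their values were seen. The cuticle list was defined by a name pattern that also took accessory gland and eggshell genes, and 17 such tested genes were removed by name. Lists are given by counts and medians, with no test of the list. Probe sets of near-identical genes may cross-hybridize, which was not tested.

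Alternatives were quantile normalization, centring of arrays, a lower limit at the 10th or 30th percentile, filtering none or 50% of the probe sets, eBayes with no trend or robust, array weights, a replicate block, the 6 control-diet arrays alone, the mean of a gene's probe sets, a change of at least 1.5-fold, and leaving out each control-diet array. Software versions for the figures were 3.11.15 of Python, 2.3.3 of pandas and 3.10.9 of matplotlib.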

Additional observations from a re-analysis of the deposited data

Results flagged for a closer look

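Probe sets that could not be named as 1 gene also differed between the ages on control diet. Of 350 probe sets that the annotation assigns to several genes, 46 were higher and 74 lower after 4 weeks by limma at an adjusted p under 0.05, with log2 fold changes between -2.58 and 2.31. Of 1436 probe sets with no gene name, 161 were higher and 160 lower, between -2.41 and 2.96. They stand outside every comparison above. With 3 arrays a group, no search for outlying arrays was made.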

How the results depend on the processing

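For time on control diet the median of all genes lay between -0.02 and 0.03 on the log2 scale under each setting. The count of 3449 genes lay between 2744 (only the 6 control-diet arrays) and 3724 (quantile normalization, 1894 higher and 1830 lower) under every setting but 1.5-fold or more, which left 1369 (486 higher, 883 lower), and leaving out 1 array, which gave 2139 to 3317 (higher 809 to 1470, lower 1322 to 2046). For the difference of the time effect between diets 0 genes became 1 with no filter (CG13362) and 0 to 3 without 1 array, all of them more positive on high-sugar diet (0 to 3 lower). For time on control diet with the replicate block 3165 genes passed (1339 higher, 1826 lower), 4185 for time on high-sugar diet and 0 for the difference. Same-numbered 2-day and 4-week arrays on control diet correlated, as deviations from their group means, with 0.15, -0.12 and -0.16. Same-numbered arrays of control and high-sugar diet were not compared in this way, so a pairing across the diets was not tested. Of the 3449 called genes between 60.8% (without 2-day array 3) and 100% (lowest 50% left out, among those tested) were called again in the same direction, and 22 changed sign with the mean of all probe sets, 3 after quantile normalization and 1 with the 6 arrays alone. Of 163 named genes 150 passed, 115 of them under every alternative, and 34 lost the call in at least 1. Apart from the genes given whether or not they passed, named genes were chosen among called genes for large changes or small adjusted p. These counts therefore do not describe the called genes as a whole. Signs reversed for Cat (0.14, quantile normalization), for Ilp2 (-0.030 without 4-week array 2, to 0.27 without another), for wb (-0.10, mean of all probe sets) and for Drs (-0.049 with array weights, -0.62 to 0.46 without 1 array), of which wb alone had passed. The count for time on high-sugar diet stayed between 4243 and 4628 without 1 control-diet array. The share of genes called lower was 10.02% among the dimmest 25% of genes and 23.2% among the brightest, with median standard errors of 0.179 and 0.109, and small changes are less detectable in dim genes.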

Other observations

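Among tested genes in their order along the chromosomes, 25% of the neighbours of a gene that fell had fallen too, against 18.8% of all genes, and 17% of the neighbours of a gene that rose had risen, against 14.3%. The longest run of falling genes held 8, namely Sfp53D, CG15617, Acp53C14a, Acp53C14b, Acp53Ea, Acp53C14c, unc-104 and CG5267, in which the Acp and Sfp genes encode seminal proteins. The next held 7, namely nxf4, CG17944, Mst84Dd, Mst84Dc, Mst84Db, Mst84Da and CG42650, in which the Mst84D genes encode sperm tail proteins. A run of 6 held Arr1 and ninaD, both of the photoreceptor list, beside CG5693, CG31740, elfless and rdo. Neighbouring copies of a family can share sequence, and cross-hybridization was not tested in these runs.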
